A study of Drosophila melanogaster with 8 samples.

Results

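The 9 genes described here make, arrange, modify, cut or bind chitin in the fruit fly Drosophila melanogaster: kkv, knk, serp, verm, Cda5, Cht2, Cht5, Cht7 and Gasp. They were taken by symbol from the 15296 gene models listed in each library, and each symbol stood at 1 locus. RNA from whole females was sequenced in 8 libraries, 2 for each of 4 groups. The A4 adults were In(2)A4/In(2)A4 females 2 to 3 days old, and the A12 adults were A12/A12 females of the same age. The A4 larvae were In(2)A4/In(2)A4 females of the third instar, and the A12 larvae were A12/A12 females of the third instar. All were reared at 18 °C. In(2)A4 is an inversion on chromosome 2, and by the study's design its carriers show position effect variegation, in which a gene moved next to heterochromatin is silenced in a mosaic of cells. A12 stands for wild type in that design. Homozygous A4 larvae were recognised by their lack of fluorescence in a stock kept over CyO-GFP. How A4 adults were picked from that stock is not stated, nor at which hour of the instar larvae were taken. Nothing in the labels tells whether the 2 libraries of a group are from different cultures, and p-values cover only the spread between these libraries, which may be technical.

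Chitin is a polymer of N-acetylglucosamine that stiffens the cuticle, lines the tracheal tubes and forms part of the peritrophic matrix of the gut. A membrane synthase extrudes it, organising proteins and deacetylases turn the fibres into ordered layers, and chitinases with hexosaminidases digest old cuticle at each moult. Moults are timed by pulses of the steroid hormone ecdysone, so the set of chitin genes in use changes within a larval instar.

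Levels are FPKM as the authors deposited them, fragments counted per length of transcript and scaled to the mapped fragments of the library. Differences were tested with limma on log2(FPKM + 1) over the 9679 genes whose mean reached 1 FPKM, and a gene was called at an adjusted p of at most 0.05. On this scale changes of low genes are understated. A change is given with its standard error. All 9 genes entered the test, although kkv in adults, Cda5 in larvae and knk and Cht5 in A4 adults had means under 1 FPKM. The yolk protein genes Yp1, Yp2 and Yp3, markers of adult females, were called higher in adults in both genotypes, and 4 of 4 larval serum protein genes were called lower in adults. Male germline messages were found in A4 larvae replicate 2, where 14 of a list of 16 were at or above 1 FPKM, compared with 1 in A4 larvae replicate 1, 1 or 2 in A12 larvae and 2 in each adult library. Their summed level in A4 larvae replicate 2 was 91.9 FPKM, against 3.03 FPKM in A4 larvae replicate 1 and 6.27 to 8.53 FPKM in A12 larvae. The 2 dosage compensation RNAs roX1 and roX2, which are made in males, summed to 47.3 FPKM in A4 larvae replicate 2 and to 1.48 to 7.69 FPKM in the other 3 larval libraries. That library goes against its label of female, and calls of chitin genes between A4 and A12 larvae that were lost without it are named. The median tested gene was at 6.51 to 6.93 FPKM in A4 larvae, 8.66 to 10.7 FPKM in A12 larvae and 13.3 to 15.6 FPKM in adults, so the median log2 change of all tested genes was -0.43 in A4 against A12 larvae and -0.048 in A4 against A12 adults.

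In larvae of both genotypes the most abundant of the 9 messages were those of verm and Cht2, and the least abundant was that of Cda5. A4 larvae had verm on top, at 123 ± 19.6 FPKM (SD, n = 2), followed by Cht2, Gasp and serp, whose libraries overlapped one another in level. Next in A4 larvae came kkv, Cht7, Cht5, knk and Cda5, with no overlap between neighbours. A12 larvae had Cht2 on top, at 132 ± 2.33 FPKM, and verm after it. In A12 larvae Cht5, serp and kkv followed as overlapping neighbours, then Gasp, then Cht7 and knk, which overlapped, and then Cda5. In adults Cht2 led in both genotypes, at 34.1 ± 9.96 FPKM in A4 adults and 18.2 ± 4.68 FPKM in A12 adults, and kkv had the lowest mean, overlapping Cht5 in A4 adults. Cht5 stood 7th of the 9 in A4 larvae and 3rd in A12 larvae.

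**Figure D1:**
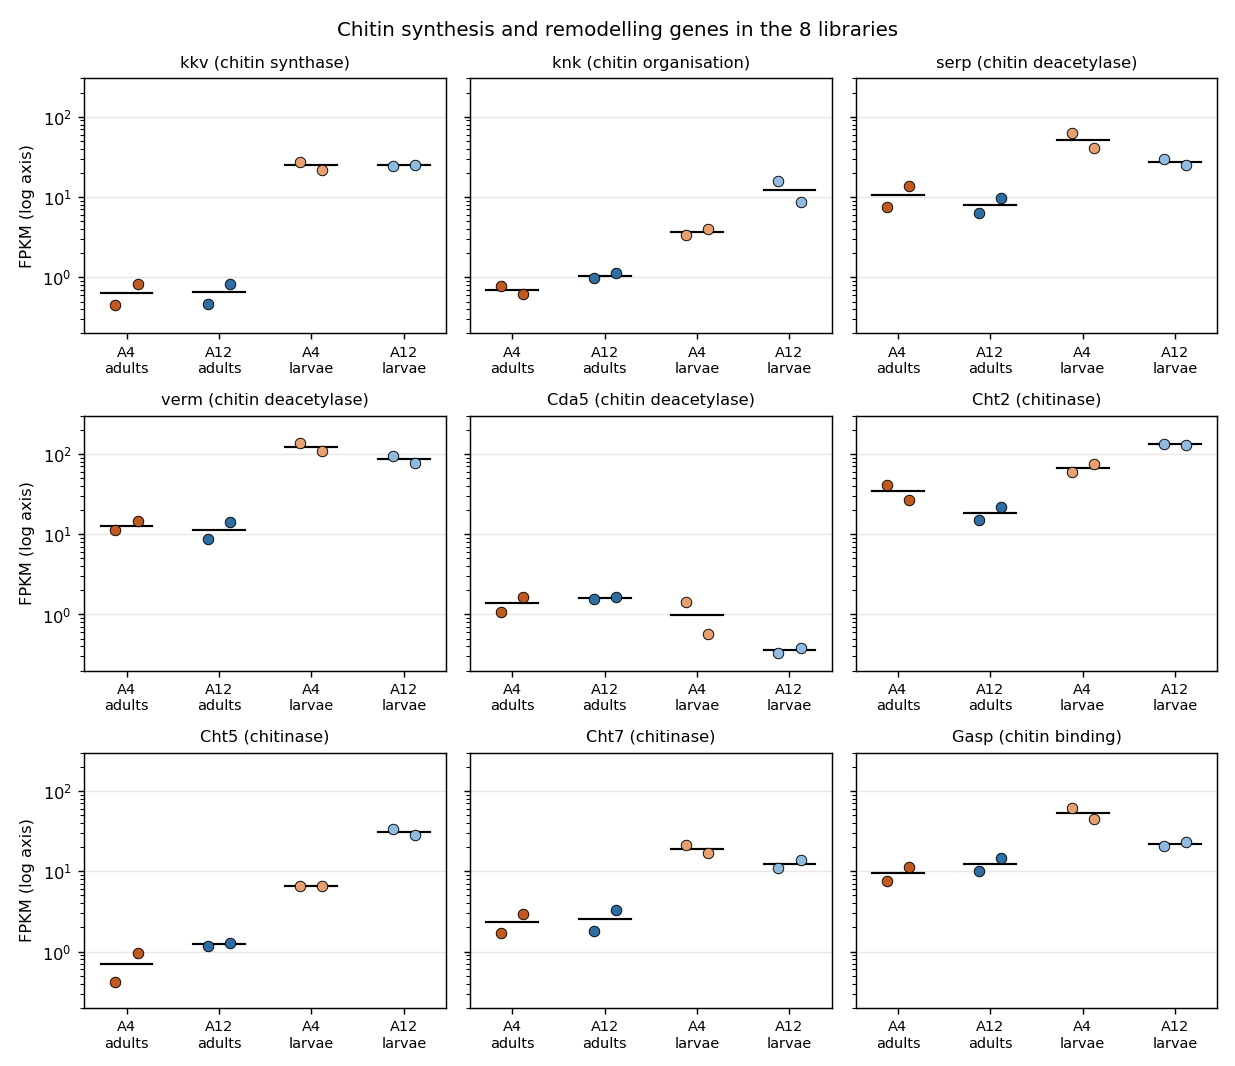
FPKM of each of the 9 genes in the 8 libraries on a log axis. Points are libraries, 2 to a group, and bars are group means. The panels other than that of Cda5 have higher points in larvae than in adults in both genotypes, and in the Cht5 panel the A4 larval points, at 6.50 and 6.61 FPKM, lie below the A12 larval points, at 34.1 and 27.96 FPKM.

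The chitin synthase gene kkv, krotzkopf verkehrt, encodes the enzyme that makes the chitin of epidermis and tracheae. Its level was 0.447 and 0.821 FPKM in A4 adults and 0.471 and 0.833 FPKM in A12 adults. It was 27.6 and 21.8 FPKM in A4 larvae and 24.5 and 25.0 FPKM in A12 larvae. The libraries of the genotypes overlapped at both stages, and larvae lay far above adults. The log2 change of A4 against A12 was -0.0088 ± 0.22 in larvae (adjusted p = 0.998, 95% interval -0.53 to 0.51) and -0.016 ± 0.22 in adults (adjusted p = 1.0). After each library was shifted to a common median over genes, the larval change of kkv was 0.45 (adjusted p = 0.257). Among the tested genes of a library, kkv stood between percentiles 6.3 and 8.2 in adults and between percentiles 71.6 and 80.5 in larvae.

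The product of knk, knickkopf, is an extracellular protein that arranges chitin fibres and, in the beetle Tribolium, shields new chitin from chitinases. Its level was 3.36 and 3.997 FPKM in A4 larvae, against 15.7 and 8.65 FPKM in A12 larvae. Both A4 larval libraries lay below both A12 larval libraries, which were themselves 1.81 times apart. The log2 change was -1.44 ± 0.28 (adjusted p = 0.00933), and the larval means were 3.30 times apart. The call was lost without A4 larvae replicate 1 (adjusted p = 0.0576) and in a fit of the larval libraries alone (adjusted p = 0.0816). In bulk samples such as these, fewer cells of a type and less RNA per cell cannot be told apart. In adults knk was at 0.775 and 0.614 FPKM in A4 and 0.976 and 1.12 FPKM in A12, a change of -0.27 ± 0.28 that did not pass (adjusted p = 0.794). The deposited FPKM of knk lay below its own deposited confidence bounds in the 4 larval libraries, for example 3.36 FPKM against bounds of 6.05 and 8.77 FPKM in A4 larvae replicate 1. With the middle of the bounds in place of the FPKM, the larval change of knk was -1.02 (adjusted p = 0.0145).

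Among the chitin deacetylases, which remove acetyl groups from chitin, serpentine (serp) and vermiform (verm) are needed for the matrix that limits the length of tracheal tubes. In larvae serp was at 62.4 and 41.1 FPKM in A4 and 29.5 and 24.8 FPKM in A12. Larval verm was at 137 and 109 FPKM in A4 and 93.6 and 78.0 FPKM in A12. For both genes the A4 larval libraries lay above the A12 larval libraries, without passing the test. The log2 change was 0.88 ± 0.34 for serp (adjusted p = 0.0788) and 0.51 ± 0.27 for verm (adjusted p = 0.171). After median centring serp passed, with a change of 1.34 (adjusted p = 0.0462), while verm, at 0.97, did not (adjusted p = 0.0661). That was the only 1 of 20 alternative settings in which serp passed. It did not with quantile normalization or with a replicate block on centred values. In adults serp was at 7.57 and 13.6 FPKM in A4 and 6.35 and 9.80 FPKM in A12. Adult verm was at 11.1 and 14.5 FPKM in A4 and 8.62 and 13.99 FPKM in A12. The adult libraries of the genotypes overlapped for both genes, with changes of 0.33 ± 0.34 for serp (adjusted p = 0.790) and 0.19 ± 0.27 for verm (adjusted p = 0.874).

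Both genes lie on the minus strand of chromosome 3L in build dm3, verm at 19683133 to 19688360 and serp at 19694077 to 19701115, with 5716 bases and no other gene model between them. The FPKM of serp over that of verm in the same library was 0.680 and 0.941 in A4 adults, 0.736 and 0.700 in A12 adults, 0.457 and 0.377 in A4 larvae, and 0.315 and 0.318 in A12 larvae. The ratio was above that of larvae in every adult library, and above that of A12 larvae in both A4 larval libraries. The other deacetylase gene, Cda5, was at 1.42 and 0.567 FPKM in A4 larvae and 0.332 and 0.382 FPKM in A12 larvae. Its A4 larval replicates were 2.50 times apart, the widest replicate gap among the 9 genes, and its larval change of 0.52 ± 0.28 did not pass (adjusted p = 0.178). In adults Cda5 was at 1.08 and 1.66 FPKM in A4 and 1.54 and 1.64 FPKM in A12, overlapping (change -0.14 ± 0.28, adjusted p = 0.931). Cda5 is the only one of the 9 genes on chromosome 2, the one that carries the inversion, at 25402 to 65404 of 2L on the minus strand, and the other 8 lie on chromosome 3. The breakpoints of the inversion were not analysed here.

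Chitinases cut chitin chains, and the Tribolium counterpart of Cht5 is needed to shed the old cuticle. Cht5 was at 6.50 and 6.61 FPKM in A4 larvae and 34.1 and 27.96 FPKM in A12 larvae. The 2 groups were far apart and each was narrow. The log2 change was -2.08 ± 0.22 (adjusted p = 0.000740), the means were 4.74 times apart, and the call held in 20 of 20 alternative settings, with an adjusted p of at most 0.0227. In both A4 larval libraries the FPKM of Cht5 lay below its own confidence bounds, and the change taken from the middle of the bounds was -1.77 (adjusted p = 0.00151). In adults Cht5 was at 0.421 and 0.961 FPKM in A4 and 1.19 and 1.27 FPKM in A12. The adult libraries did not overlap, and the change of -0.42 ± 0.22 did not pass (adjusted p = 0.550).

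Cht2, another chitinase gene, had 58.9 and 74.9 FPKM in A4 larvae and 133 and 130.1 FPKM in A12 larvae. In adults it was at 41.1 and 27.0 FPKM in A4 and 14.9 and 21.6 FPKM in A12. The A4 libraries were thus below those of A12 in larvae and above them in adults, without overlap at either stage. The larval log2 change was -0.98 ± 0.27 (adjusted p = 0.0308) and the adult change was 0.86 ± 0.27 (adjusted p = 0.355, 95% interval 0.22 to 1.49). The larval call was lost after median centring, with a change of -0.52 (adjusted p = 0.244), and without any of the larval libraries in turn (adjusted p = 0.0612 to 0.144). Leaving out A4 larvae replicate 2, the library with male germline messages, gave -1.15 (adjusted p = 0.0612). Cht7, a chitinase gene whose Tribolium counterpart acts in wing expansion, had 21.5 and 16.9 FPKM in A4 larvae and 10.9 and 13.98 FPKM in A12 larvae. Its larval libraries did not overlap, but the change of 0.59 ± 0.29 did not pass (adjusted p = 0.148). In adults Cht7 was at 1.72 and 2.93 FPKM in A4 and 1.79 and 3.25 FPKM in A12 and overlapped (change -0.074 ± 0.29, adjusted p = 0.993). Among Cht2, Cht5 and Cht7 alone, the order in larvae therefore differed by genotype: Cht2, Cht7, Cht5 in A4 and Cht2, Cht5, Cht7 in A12.

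Gasp encodes a secreted chitin-binding protein of the peritrophin type, found in tracheal lumen and cuticle. Its level was 61.5 and 44.2 FPKM in A4 larvae and 20.7 and 23.4 FPKM in A12 larvae. Both A4 larval libraries lay above both A12 larval libraries, and Gasp was the only member called higher in A4 larvae before centring. The log2 change was 1.21 ± 0.28 (adjusted p = 0.0165), with means 2.40 times apart. The call was lost without A4 larvae replicate 1 (adjusted p = 0.0989) or A12 larvae replicate 1 (adjusted p = 0.109), with no filter on low genes (adjusted p = 0.0522) and in a fit of the larval libraries alone (adjusted p = 0.0598). In adults Gasp was at 7.65 and 11.3 FPKM in A4 and 10.04 and 14.8 FPKM in A12, overlapping, with a change of -0.36 ± 0.28 (adjusted p = 0.696).

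Across the 9 genes, 4 were called between A4 and A12 larvae: Gasp higher and knk, Cht2 and Cht5 lower. Among all tested genes 34.7% were called in that comparison, 8.75% higher and 25.9% lower in A4 larvae, so the members' share of calls was near the background. The median larval change of the members was 0.51, beside -0.43 over all tested genes, and 6 of the 9 lay above the median of all genes. After median centring 4 were again called, serp and Gasp higher and knk and Cht5 lower, with 23.8% of all genes called, 13.7% higher and 10.1% lower. Without A4 larvae replicate 2 the change was 1.44 for Gasp, -1.54 for knk, -2.09 for Cht5 and -1.15 for Cht2. Without A4 larvae replicate 1 it was 0.97 for Gasp, -1.34 for knk and -0.81 for Cht2. Without A12 larvae replicate 1 it was 1.12 for Gasp and -0.96 for Cht2. Each such fit leaves 1 library in a group, and fewer of all tested genes were called in it than in the full fit. The larval libraries did not overlap between genotypes for 8 of the 9 genes, kkv being the exception, as for 72.6% of all tested genes. In adults 0 of the 9 were called by limma and 1, Cht2, had an unadjusted p under 0.05. Over all tested genes 0.734% were called between A4 and A12 adults, 0.217% higher and 0.517% lower in A4. The adult libraries did not overlap for 3 of the 9, Cht2 higher and knk and Cht5 lower in A4, as for 42.3% of all tested genes.

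**Figure D2:**
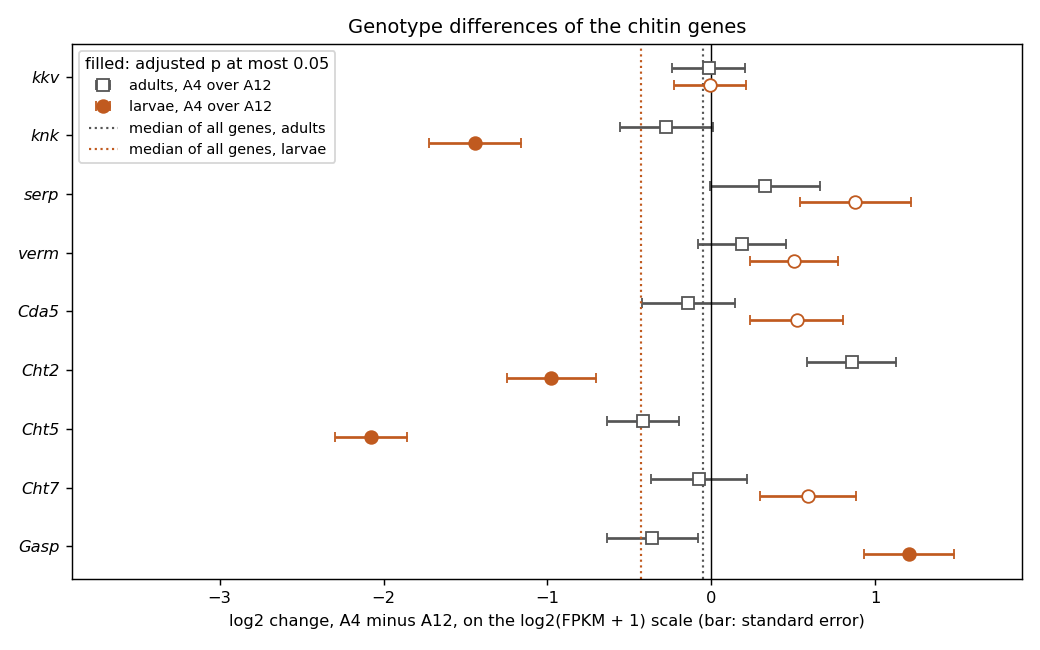
Log2 change of A4 against A12 for each of the 9 genes in adults (squares) and larvae (circles), on the log2(FPKM + 1) scale with standard errors. Filled symbols passed an adjusted p of 0.05, and dotted lines mark the median of all tested genes, -0.048 in adults and -0.43 in larvae. Cht5, at -2.08, lies farthest to the left and Gasp, at 1.21, farthest to the right, both in larvae.

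Genes of the moulting hormone response also differed between the larval groups. Of 13 tested genes of that list, 0 were called higher and 10 lower in A4 larvae, beside 8.75% higher and 25.9% lower over all tested genes. The 16 genes of that list found at 1 locus summed to 161 and 146 FPKM in A4 larvae, against 789 and 513 FPKM in A12 larvae. Calls of the lists in this paragraph were made without median centring. Of the members, Gasp, serp, verm, Cda5 and Cht7 had higher means in A4 than in A12 larvae, and kkv had nearly equal means. The lower level of Cht5, knk and Cht2 in A4 larvae went with a lower level of hormone response genes. Midgut genes went the other way, with 7 of 9 called higher and 0 lower in A4 larvae, and sums of 12170 and 24570 FPKM in A4 larvae against 5163 and 10930 FPKM in A12 larvae. The part of the genes of these lists in the members' differences was not tested. Since the hour within the instar is not given in the labels, stage within the instar and genotype cannot be told apart in the larval comparison.

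The genotype difference itself differed between stages for 3 genes. The change in adults minus the change in larvae was 1.83 ± 0.38 for Cht2 (adjusted p = 0.0205), 1.66 ± 0.31 for Cht5 (adjusted p = 0.0139) and -1.57 ± 0.39 for Gasp (adjusted p = 0.0361). For Cht2 the A4 level was above the A12 level in adults and below it in larvae. Gasp had A4 above A12 in larvae only, and Cht5 had A4 below A12 at both stages by unequal amounts. Cht5 passed the filter only through larvae, and its adult values, 0.421 to 1.27 FPKM, are low, where this scale understates changes. Its difference between stages is therefore a description. For knk the same difference, 1.17 ± 0.40, did not pass (adjusted p = 0.0832). Among all tested genes 17.6% were called for this difference, 10.9% with a positive and 6.75% with a negative value, and the median of all genes was 0.37. After median centring these shares were 15.6%, 5.93% and 9.65%. None of the 3 was called without A4 larvae replicate 1 or without A12 larvae replicate 1 (adjusted p = 0.0509 to 0.126). Leaving out any other library also lost some of these calls. Cht2 was at 1.54 without A4 adults replicate 1 and at 1.58 without A12 adults replicate 1. Cht5 was at 1.43 without A4 adults replicate 2 and at 1.69 without A12 adults replicate 2. Gasp was at -1.80 without A4 larvae replicate 2 and at -1.65 without A12 larvae replicate 2. For knk the difference was 1.56 without A12 larvae replicate 2. With a pseudocount of 0.1 FPKM the difference for Cht5 was 1.38 and not called (adjusted p = 0.102). Median centring left Cht5, at 1.24, called (adjusted p = 0.0365) and Cht2, at 1.41, not called (adjusted p = 0.0650).

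The level of the members differed widely between stages. In adults against larvae of A12, 9 of the 9 were called, 8 lower and Cda5 higher, where 58.6% of all tested genes were called, 41.1% higher and 17.6% lower in adults. In adults against larvae of A4, 8 were called lower and 0 higher, where 69.7% of all tested genes were called, 55.8% higher and 13.9% lower. After median centring 0 were called higher and 8 lower in each genotype. All tested genes then gave 56.3% called in A12, 27.1% higher and 29.2% lower, and 53.5% in A4, 23.5% higher and 30.0% lower. The median change of the members as deposited was -2.63 in A12 and -2.21 in A4, beside 0.48 and 0.87 over all tested genes. The synthase gene kkv had the widest gap, with adult means 37.9 times below larval means in A12 (change -3.97 ± 0.22) and 39.0 times below them in A4 (change -3.98 ± 0.22). Over all adult libraries kkv, knk and Cht5 averaged under 1 FPKM, and Cda5 did so over all larval libraries. These 3 genes passed the filter only through larvae and Cda5 only through adults, so a stage difference was built into their selection. Their stage values, and the counts and medians over the 9 genes, are descriptions.

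The deacetylase gene verm was 7.59 times lower in A12 adults than in A12 larvae and 9.59 times lower in A4 adults than in A4 larvae, and serp 3.36 and 4.88 times lower in the same comparisons. Among the chitinases, Cht5 was 25.2 times lower in adults of A12 and 9.48 times lower in adults of A4, and Cht7 was 4.92 and 8.25 times lower. Cht2 was 7.22 times lower in A12 adults than in A12 larvae (change -2.81 ± 0.27, adjusted p = 0.000114) but 1.96 times lower in A4 adults than in A4 larvae (change -0.97 ± 0.27, adjusted p = 0.0142). The A4 call of Cht2 was lost without A4 adults replicate 2 (adjusted p = 0.0945) or without A4 larvae replicate 2 (adjusted p = 0.0818). In the organiser knk, which like Cht5 passed the filter only through larvae, the adult level was 11.6 times lower in A12 and 5.30 times lower in A4. Gasp was 1.77 times lower in A12 adults (change -0.80 ± 0.28, adjusted p = 0.0399) and 5.59 times lower in A4 adults (change -2.37 ± 0.28, adjusted p = 0.000302). The A12 call of Gasp was lost without A12 adults replicate 1, A12 larvae replicate 1 or A12 larvae replicate 2 (adjusted p = 0.0920 to 0.214). These 2 stage comparisons share no libraries, but the difference between them is the same quantity as the difference of genotype changes given above.

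Cda5 was the exception to the lower adult levels. Adult Cda5 in A12 was 4.46 times its larval level (change 0.93 ± 0.28), the stage through which it passed the filter, and in A4 the adult and larval libraries overlapped (change 0.27 ± 0.28, adjusted p = 0.411). The A12 call of Cda5 was lost after median centring, with a change of 0.40 (adjusted p = 0.339), and without any of the 4 A12 libraries in turn (adjusted p = 0.0532 to 0.0591). In A4 its change after centring was -0.69 (adjusted p = 0.118).

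Ratios between 2 members within a library do not depend on the scaling of that library. The ratio of Cht5 to kkv was 0.235 and 0.303 in A4 larvae and 1.39 and 1.12 in A12 larvae. That of knk to kkv was 0.122 and 0.183 in A4 larvae and 0.640 and 0.347 in A12 larvae. The ratio of Gasp to kkv was 2.23 and 2.02 in A4 larvae and 0.845 and 0.939 in A12 larvae. Relative to the synthase message, that is, A4 larvae had less chitinase Cht5 and organiser message and more Gasp message than A12 larvae, with no overlap. The widest gap among the ratios computed was that of Gasp to Cht5, at 9.47 and 6.69 in A4 larvae and 0.606 and 0.838 in A12 larvae. These are the members with the highest and the lowest larval change, so the gap restates those changes. In adults the ratio of Gasp to Cht5 was 18.2 and 11.7 in A4 and 8.45 and 11.7 in A12. Cht2 over verm, a chitinase over a deacetylase, was 0.432 and 0.688 in A4 larvae and 1.43 and 1.67 in A12 larvae, and in adults 3.69 and 1.87 in A4 and 1.73 and 1.54 in A12. The order of the genotypes in this ratio was thus opposite at the 2 stages. Ratios were compared as values only, with no test.

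**Figure D3:**
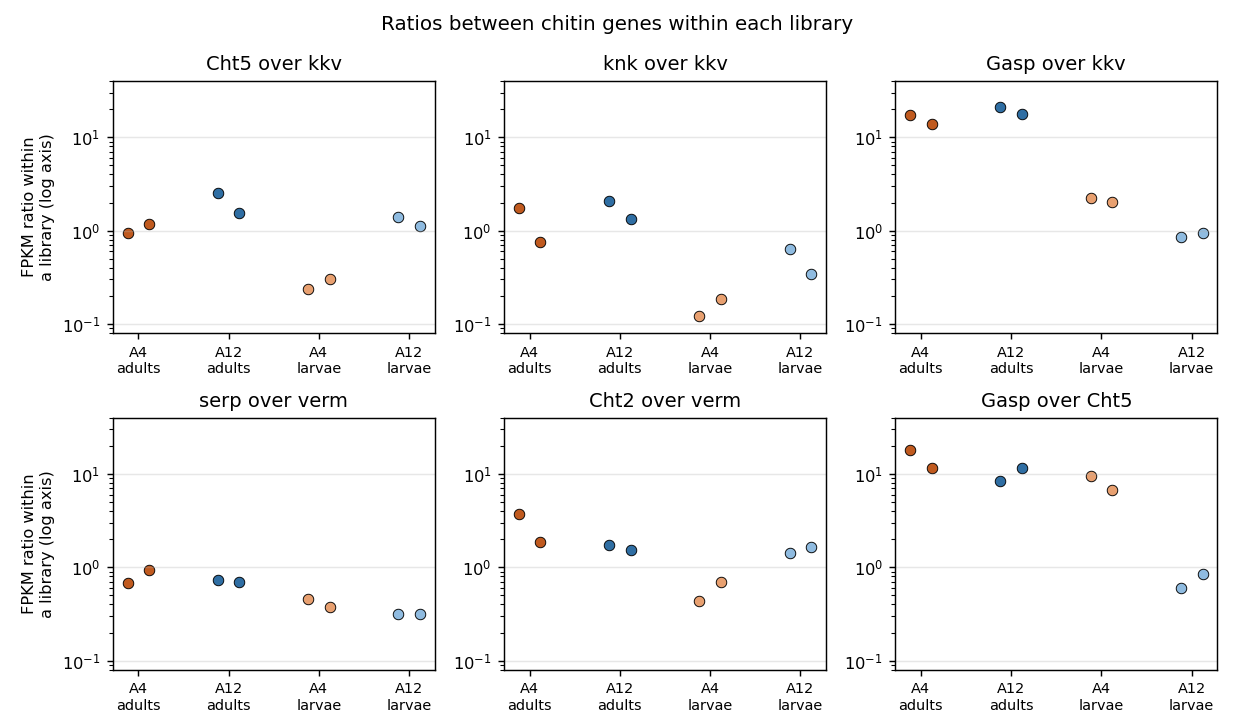
FPKM ratios between pairs of members within each library on a log axis, with points for the 2 libraries of each group. In the panel of Gasp over Cht5 the A12 larvae, at 0.606 and 0.838, stand apart from the A4 larvae, at 9.47 and 6.69, and from the adults, at 8.45 to 18.2.

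The summed level of the 9 genes overlapped between the larval groups, at 380 and 319 FPKM in A4 and 363 and 332 FPKM in A12. In adults the sum was 71.9 and 73.3 FPKM in A4 and 45.9 and 68.3 FPKM in A12. The make-up of the larval sum differed between genotypes. The 3 deacetylases made up 52.8% and 47.2% of it in A4 larvae and 34.03% and 31.1% in A12 larvae. The 3 chitinases made up 22.9% and 30.9% in A4 larvae and 49.2% and 51.8% in A12 larvae. Gasp made up 16.2% and 13.9% in A4 larvae and 5.70% and 7.06% in A12 larvae, while the synthase held 6.85% to 7.27% and 6.75% to 7.52%. Among the 9 genes, deacetylase messages thus outweighed chitinase messages in A4 larvae, and chitinase messages outweighed deacetylase messages in A12 larvae. Further deacetylases and chitinases, described below, are not in these sums, so this order is not one of the whole classes. In adults the chitinase share was 60.2% and 42.2% in A4 and 39.0% and 38.2% in A12.

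**Figure D4:**
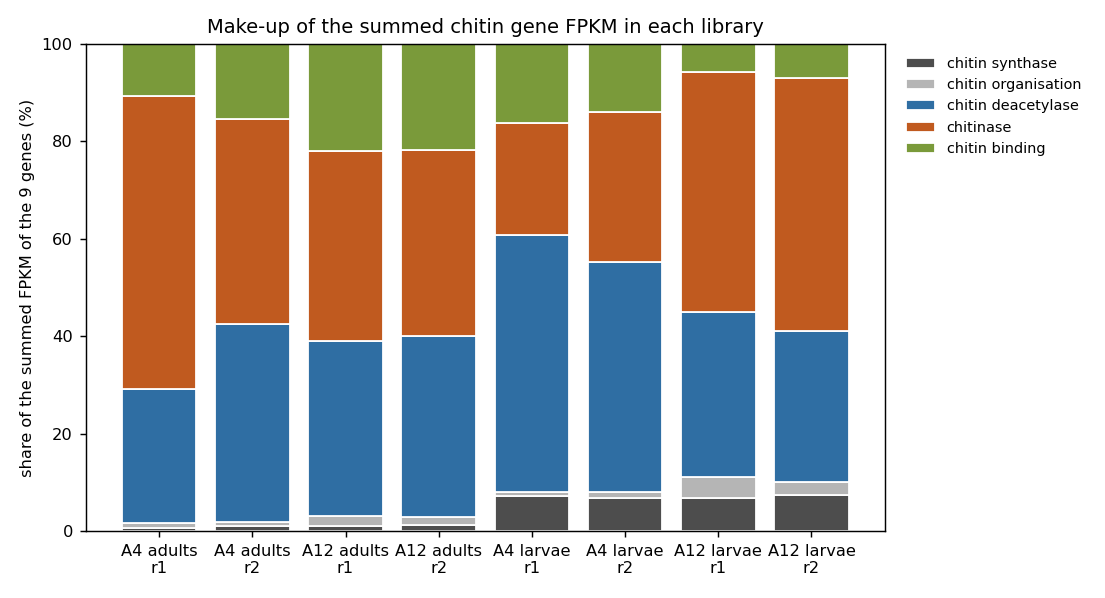
Share of each role in the summed FPKM of the 9 genes, in percent, 1 bar per library. The deacetylase part is 47.2% to 52.8% in A4 larvae and 31.1% to 34.03% in A12 larvae, and the chitinase part is 22.9% to 30.9% in A4 larvae and 49.2% to 51.8% in A12 larvae.

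A further 39 genes of the chitin pathway were examined, of which 37 were tested. In A4 against A12 larvae 8 were called higher and 8 lower, with a median change of 0.11, where 8.75% of all tested genes were called higher and 25.9% lower. After median centring 11 were called higher and 3 lower, beside 13.7% and 10.1% of all tested genes. With A4 larvae replicate 2 left out, the counts were 6 higher and 4 lower, beside 6.29% and 14.8% of all tested genes. The calls lost without it were those of Cda4 and Idgf6, higher, and of reb, rtv, Gnpnat and Hexo2, lower (adjusted p = 0.0534 to 0.113). Without A12 larvae replicate 1 the counts were again 6 higher and 4 lower, beside 515 higher and 871 lower among all 9679 tested genes. Without A4 larvae replicate 1 they were 6 higher and 2 lower, beside 6.55% and 10.3%. Of the 12 genes of chitin organisation and binding, 5 were called higher, all of the obstructor family of secreted chitin-binding proteins, and 1, rtv, lower. Not called in the same family were obst-A (change 0.15 ± 0.25, adjusted p = 0.660), obst-B (change -0.046 ± 0.26, adjusted p = 0.914) and obst-J. The largest change was that of obst-F, at 71.1 and 99.4 FPKM in A4 larvae and 9.74 and 11.4 FPKM in A12 larvae (change 2.88 ± 0.30, adjusted p = 0.000682). obst-E, which encodes a protein of the larval and pupal cuticle that shapes the body, had 131 and 185 FPKM in A4 larvae and 18.7 and 41.4 FPKM in A12 larvae (change 2.44 ± 0.42, adjusted p = 0.00588). obst-I changed by 1.92 ± 0.30 (adjusted p = 0.00412), obst-H by 1.25 ± 0.23 and obst-G by 0.82 ± 0.18. In the same direction as these and as Gasp, itself of the obstructor family, were both further deacetylases tested. Cda9 changed by 1.67 ± 0.23 (adjusted p = 0.00237) and Cda4 by 0.78 ± 0.25 (adjusted p = 0.0461). The deacetylase gene ChLD3, whose mean was under the filter, was not tested and lay the other way. It was listed at 0 FPKM in A4 larvae and at 1.81 and 1.24 FPKM in A12 larvae. The call of Cda4 was lost in 10 of 20 alternatives, among them leaving out any 1 of the 4 larval libraries (adjusted p = 0.113 to 0.172).

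Called lower in A4 larvae were 2 of 6 further chitinases, where 25.9% of all tested genes were called lower and 8.75% higher. Of the 6, 0 were called higher, and their median change was 0.275, so the lower level was not a trait of the whole class. Cht11 was at 5.23 and 5.50 FPKM in A4 larvae and 26.1 and 20.9 FPKM in A12 larvae (change -1.94 ± 0.18, adjusted p = 0.000420). Cht3, now named Cht10, whose Tribolium counterpart is needed for moults, was at 45.5 and 42.3 FPKM in A4 larvae and 169 and 120 FPKM in A12 larvae (change -1.68 ± 0.21, adjusted p = 0.00152). These 2 and reb, one of a pair of genes needed for chitin deposition in tracheae (change -1.24 ± 0.27, adjusted p = 0.0141), were the 3 still called lower after median centring. The call of reb was lost without A4 larvae replicate 1 (adjusted p = 0.0744) or replicate 2 (adjusted p = 0.0534), with only the compared groups, and with a replicate block on centred values. The organiser partner rtv, retroactive, which in Tribolium carries Knickkopf to its place, was lower by the test as deposited (change -1.11 ± 0.27, adjusted p = 0.0202) and not after centring (change -0.65, adjusted p = 0.0580). The hexosaminidase genes Hexo1 and Hexo2, which finish the breakdown of chitin, and the precursor genes Gfat2 and Gnpnat were also called lower, with changes of -0.95 to -0.57, and none of these 4 after centring. CS-2, the synthase of the gut lining, and mmy, which makes the activated sugar, were not called, at -0.29 ± 0.18 (adjusted p = 0.228) and 0.11 ± 0.17 (adjusted p = 0.627). Of the 6 imaginal disc growth factors, chitinase relatives without chitinase activity, Idgf6 was called higher (change 0.94 ± 0.28, adjusted p = 0.0377) and no other.

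**Figure D5:**
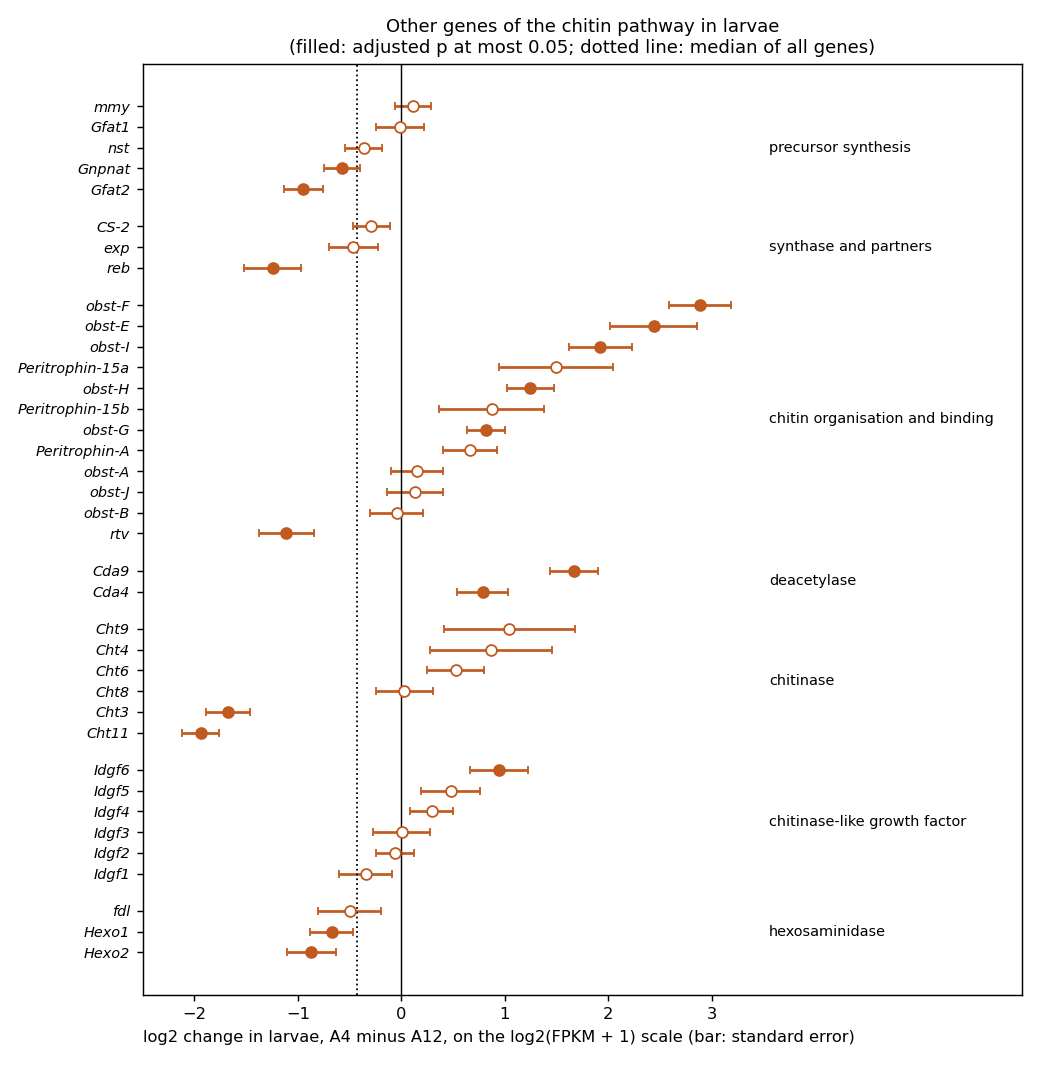
Log2 change of A4 against A12 larvae for the 37 further genes of the chitin pathway tested, by role, with standard errors on the log2(FPKM + 1) scale. Filled points passed an adjusted p of 0.05, and the dotted line is the median of all tested genes, -0.43. The 5 obstructor genes and both deacetylases called lie to the right of 0, and Cht3, Cht11, reb and rtv to the left.

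In adults, by genotype, 1 of the 37 was called. That gene, rtv, was listed at 0 in both A4 adult libraries and at 3.69 and 2.30 FPKM in A12 adults (change -1.98 ± 0.27, adjusted p = 0.0263). The call was lost without any of the 4 adult libraries in turn and without either A4 larval library.

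By stage, 24 of the 37 were called lower and 2 higher in A12 adults against A12 larvae, and 24 lower and 3 higher in A4 adults against A4 larvae. Of all tested genes 17.6% were lower and 41.1% higher in A12, and 13.9% lower and 55.8% higher in A4. After median centring 29 of the 37 were lower and 1 higher in A12, and 33 lower and 1 higher in A4, beside 29.2% lower and 27.1% higher, and 30.0% lower and 23.5% higher, of all tested genes. Of the 37, 9 passed the filter only through larvae, obst-J and Cht3 among them, and 1, Cht8, only through adults, so these counts and the values of those genes are descriptions. Among the largest changes was that of Peritrophin-15b, a protein of the gut lining. It had means of 47.8 FPKM in A12 adults and 3482 FPKM in A12 larvae, and of 22.6 FPKM in A4 adults and 6634 FPKM in A4 larvae. obst-J, listed at 0.0724 to 0.251 FPKM in adults, was at 62.9 to 111 FPKM in larvae. Cht3 had a mean of 0.523 FPKM in A12 adults and 144 FPKM in A12 larvae (change -6.56 ± 0.21). Cht8 went the other way, with 14.2 and 24.4 FPKM in A12 adults and 0.211 and 0.419 FPKM in A12 larvae (change 3.91 ± 0.28). Cht8 and Cht2 were thus the chitinase messages above 10 FPKM in every adult library among those named here. Other chitinases were not far from that level, with Cht11 at 9.96 to 11.2 FPKM and Cht9 at 9.44 to 17.3 FPKM in adults.

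The genes with the most similar pattern over the 8 libraries were found by the root mean square difference of centred log2(FPKM + 1) among 8534 tested genes with no listed 0. Nearest to verm was the deacetylase gene Cda4, with a difference of 0.182. Nearest to serp was the chitinase gene Cht6, at 0.256. Ser was nearest to knk, at 0.164, followed by CG31100 at 0.177 and Ptp52F at 0.213. For Cht5 the nearest was cer, at 0.197, followed by CG13215 at 0.220 and Orct at 0.232. CG13731 was nearest to kkv, at 0.193. Nearest to Cda5, Cht2, Cht7 and Gasp were NaPi-T at 0.097, CG43349 at 0.294, CG16704 at 0.165 and CG4288 at 0.229. The gene cer, nearest to Cht5, had means of 51.8 FPKM in A4 adults, 61.9 FPKM in A12 adults, 178 FPKM in A4 larvae and 1002 FPKM in A12 larvae. Among the 9 themselves, serp and Cht7 were closest, at 0.301, followed by serp and Gasp, at 0.345. The widest pair was kkv and Cda5, at 2.30. Cht5 was nearest among the 9 to knk, at 0.569, and knk to Cht2, at 0.503. All of these distances are over the same 8 libraries.

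Absolute depth is unknown, since FPKM were deposited without counts. For member values inside their deposited confidence bounds, the bounds reached to each side 5.84% to 41.7% of the FPKM in larvae (median 7.75%). In adults they reached 10.5% to 84.5% (median 17.7%). The larval values below their bounds, left out of this range and median, had 13.2% to 40.4%. Replicates differed by more than the deposited bounds, which did not overlap in 20 of the 36 combinations of gene and group. Of the 72 values of the members, 66 lay inside their own bounds and 6 below, the 4 larval values of knk and the 2 of Cht5 in A4 larvae. In the authors' deposited table the larval log2 ratios, A4 over A12, were -2.24 for Cht5, -1.72 for knk, 1.48 for Cda5 and 1.26 for Gasp, each the ratio of mean FPKM without a pseudocount. The authors' deposited table thus has Cda5 farther from 0 than Gasp, where the log2(FPKM + 1) scale has 0.52 for Cda5 and 1.21 for Gasp. Overlapping gene models could share reads with kkv (CG14668, mean 0.186 FPKM) and Cht2 (CG13921, mean 3.47 FPKM), both far below them in larvae.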

How the data were processed

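The authors deposited FPKM for each library, with confidence bounds and a status. Build dm3 and the tools TopHat 0.6, Cufflinks, Bowtie and Bowtie2 are named, without order or options, per the submitters' processing notes. TruSeq libraries of polyA RNA followed removal of ribosomal RNA, per the labels' protocols. The authors also deposited log2 ratios, A4 over A12, in a table of the series, from which strands were taken. Starts in the deposited tables count from 0 and are given from 1.

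After 17 genes with failed or high-data status were removed, 9679 genes whose mean over the 8 libraries reached 1 FPKM were tested on log2(FPKM + 1) with limma 3.58.1 in R 4.3.3. A single model held the 4 groups, eBayes used a trend, and the Benjamini-Hochberg threshold was 0.05. The procedure was tested on simulated data. Tables and figures were made with pandas 2.3.3 and matplotlib 3.10.9 in Python 3.11.15. Alternatives were pseudocounts of 0.1 and 5 FPKM, no filter, a filter at 5 FPKM, median centring, quantile normalization, other eBayes settings, only the compared groups, a replicate block, each library left out and the middle of the confidence bounds, the last added after seeing the data. The replicate numbers did not pair the libraries. The depth per sample is unknown, so no counting error is given. The members and lists were chosen with earlier results of these data known. Named genes were the 9 members, from the pathway list up to 6 called genes of largest change per comparison, and for each member up to 3 genes nearest in pattern, the nearest of which is given throughout. Other pathway genes were named by role after their values were seen.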

Additional observations from a re-analysis of the deposited data

Results flagged for a closer look

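For 3 of the 9 genes the genotype difference in adults differed from that in larvae by a test of the difference itself (limma, log2(FPKM + 1), adjusted over 9679 genes). The difference of the A4 minus A12 changes, adults minus larvae, was 1.83 for Cht2, 1.66 for Cht5 and -1.57 for Gasp, each from 2 libraries a group. Cht2 was higher in A4 in both adult libraries and lower in both larval libraries, with the adult change itself not past the threshold (adjusted p = 0.355). Cht5 and Gasp were called by genotype in larvae and not in adults. Cht5 passed the filter only through larvae, so its difference between stages is a description. Each of the 3 calls was lost with single libraries left out. Stage within the larval instar cannot be told apart from genotype, and 1 A4 larval library carried male germline messages.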

How the results depend on the processing

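The number of the 9 genes called between A4 and A12 larvae, 4, became 2 with no filter and 1 with only the compared groups, and was 1 to 4 with each library left out. For the difference of differences the count of 3 became 1 with no filter, and 0 to 3 with a library left out. Of the pathway genes called in larvae, 16, the fit of only the compared groups kept a count of 4, and leaving out libraries gave 8 to 16. The 1 pathway call in adults became 0 with a pseudocount of 5, with no filter, with a filter at 5 FPKM and with only the compared groups, and 0 to 1 with a library left out. Over all settings, 155 counts were within 1.5 times their main value and 24 were not, and of the values of single members 803 kept direction and side of the threshold, 50 fell short of it, 2 newly passed it and 26 changed sign, none of the 26 called. The replicate numbers did not pair the libraries (correlations of -0.062 to 0.086 between groups), and with a replicate block 4 members were called in larvae, 0 in adults by genotype and 3 for the difference of differences. With that block 9.14% of all tested genes were called higher and 28.1% lower in A4 larvae. The shares were 0.186% and 0.424% in adults, and 11.2% positive and 6.86% negative for the difference of differences. Changes of sign in kkv were in larvae 0.45 after centring, with or without the replicate block, 0.38 with quantile normalization, and -0.17 to 0.15 with libraries left out. In adults kkv gave 0.018 after centring, with or without the block, 0.039 with quantile normalization and -0.18 to 0.15 with libraries left out. Its difference of differences was 0.0020 with a pseudocount of 5 and up to 0.16 with libraries left out. With libraries left out, serp in adults ranged over -0.055 to 0.71 and verm over -0.13 to 0.51, the difference of differences of verm over -0.64 to 0.0011, and Cda5 in adults over -0.32 to 0.037. Cda5 in A4 adults against A4 larvae was -0.69 after centring, with or without the block, -0.061 with quantile normalization and -0.040 to 0.59 with libraries left out. Cht7 in adults was 0.0030 with quantile normalization and -0.38 to 0.23 with libraries left out. The cause was not tested. Unknown depth and 2 libraries a group limit the adult values of kkv, knk, Cht5 and Cda5, which lie near or under 1 FPKM.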
